A study of Mus musculus with 2 samples.

Results

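The genes described here are 10 selenoprotein messenger RNAs of the mouse, read out by active ribosome profiling of whole brain: Gpx1, Gpx4, Txnrd1, Txnrd2, Sepw1, Sepp1, Selk, Selm, Selt and Sep15. The newer symbols of the last 6 are Selenow, Selenop, Selenok, Selenom, Selenot and Selenof. They were chosen by name, and all 10 were found among the 45578 genes of the deposited table. Each gene was represented by its isoform with the largest count over both replicates together. The brains came from control mice of the Taiwanese spinal muscular atrophy line on a congenic FVB background, heterozygous for the mouse Smn gene (Smn+/-) and carrying the human SMN2 transgene (SMN2tg/0), taken at postnatal day 5. All samples share this genotype. There was 1 group with 2 biological replicates, which the labels do not tie to named animals or litters, and no treatment or second genotype, so the comparisons are between genes and between replicates. Cytoplasmic lysates were made from the frozen brains and digested with a nuclease. RiboLace captures ribosomes on beads that carry a puromycin analogue, and the fragments of 25 to 35 nucleotides protected by those ribosomes were sequenced.

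Selenoproteins contain selenocysteine, an amino acid inserted at a UGA codon that elsewhere stops translation. Recoding needs a stem-loop in the 3' untranslated region, the SECIS element, together with the SECIS-binding protein Secisbp2, the elongation factor Eefsec and a dedicated tRNA. Ribosomes that read the UGA as a stop terminate early, and such messages can be degraded by nonsense-mediated decay. In brain, selenoproteins are known for removing peroxides and for redox control in the endoplasmic reticulum, and the brain holds on to selenium when supply is short. The deposited table has 1 count per transcript and replicate and no position within the transcript, so passage of ribosomes through the UGA was not measured.

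Replicate 1 held 343560 counts at the gene level and replicate 2 held 120274, so replicate 1 was 2.86 times deeper. Levels are given in CPM, footprint counts per 1000000 of a library's effective size. A single count corresponded to 2.71 CPM in the deeper library and to 8.93 CPM in the other. Markers of neurons held 0.595% of gene counts on average, those of astrocytes and radial glia 0.138%, oligodendrocyte lineage 0.0524%, microglia 0.0175%, endothelium 0.0150%, choroid plexus 0.125%, meninges 0.0586% and erythroid cells 0.396%. The choroid plexus share was nearly all Ttr, with 395 of 413 counts in replicate 1 and 153 of 156 in replicate 2. The other choroid plexus markers Folr1 (4 and 2), Aqp1 (8 and 1) and Otx2 (6 and 0) were low. Tubb3 among the neuronal and Col1a1 among the meningeal markers were called higher in replicate 2 by the test described for Txnrd1. Of 3 liver genes, 2 had no count in either replicate and the other had 1. In whole brain, fewer cells of a type and less RNA per cell cannot be told apart.

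The 10 genes were a small part of the footprints. They held 270 counts in replicate 1, or 0.0786% of gene counts (95% Wilson interval 0.0698 to 0.0885), and 87 counts in replicate 2, or 0.0723% (0.0587 to 0.0892). The mean share was 0.0755% ± 0.00442 (SD, n = 2), and the intervals overlapped. Every one of the 10 had at least 2 counts in each replicate. A mean of at least 10 counts, the minimum for testing, was reached by 8 of the 10, and Gpx1 and Txnrd2 fell short of it. At the depth of replicate 2 alone 3 of the 10 reached 10 counts, against 9 in replicate 1.

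Levels of different genes are compared here per kilobase of coding sequence. On that scale, with 1 isoform per gene, Sepw1 and the 4 residents of the endoplasmic reticulum were the highest, and the thioredoxin reductases, Gpx1 and Sepp1 the lowest. The order was Sepw1, Selk, Selt, Selm, Sep15, Gpx4, Sepp1, Txnrd1, Gpx1 and Txnrd2, and the first stood 40.7 times above the last, a ratio that rests on the 5 counts of Txnrd2 and was 75.6 in replicate 1 and 24.9 in replicate 2. With the isoforms of each gene summed the order was Selm, Sep15, Selk, Selt, Gpx4, Sepw1, Sepp1, Gpx1, Txnrd1 and Txnrd2, so Gpx4 at 228 CPM per kb stood above Sepw1 at 179, and the ratio of first to last was 18.4. In the order with 1 isoform per gene, the ranges of the replicates overlapped for 6 of the 9 neighbouring pairs. They were apart between Sep15 and Gpx4, between Gpx4 and Sepp1, and between Gpx1 and Txnrd2. Exact Poisson intervals of the counts summed over replicates were apart for 2 of these 3 pairs, not for Gpx4 and Sepp1. For Sep15 and Gpx4 they were only just apart, at 162.3 against 162.2 CPM per kb. Sepw1, Selk, Selt, Selm and Sep15 were the 5 highest in each replicate, in different orders. Counts are per transcript and isoforms without a coding sequence also carry them, so the order was taken on the whole transcript too. Per kilobase of whole transcript Selm came first at 142 CPM per kb and Sepw1 next at 130 CPM per kb.

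**Figure D1:**
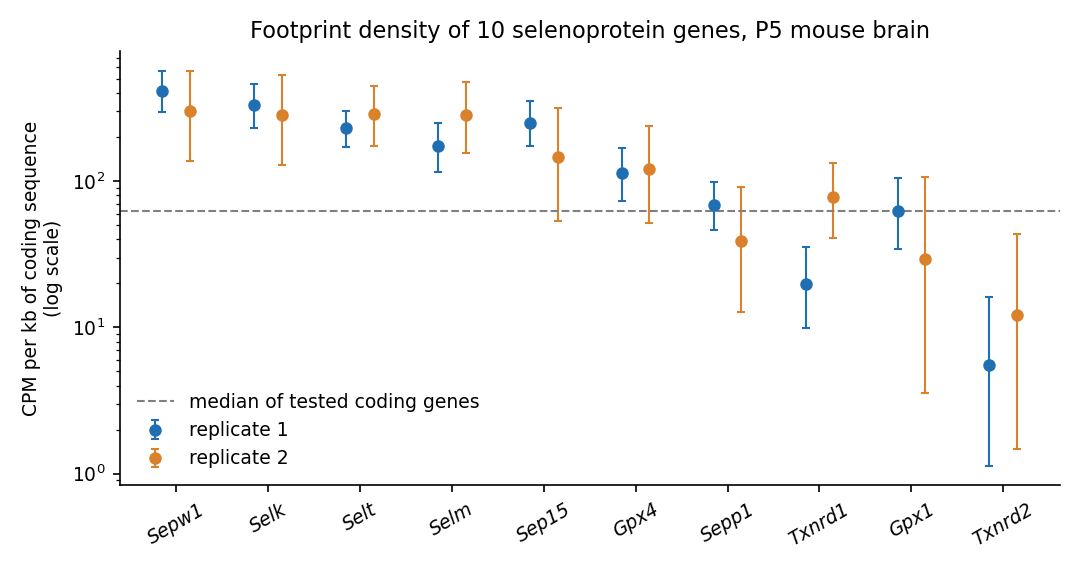
Footprint density of the 10 genes in CPM per kilobase of coding sequence (log axis) in replicate 1 (blue) and replicate 2 (orange), with exact 95% Poisson intervals of the counts; the dashed line is the median of tested coding genes, 62.3. Sepw1, Selk, Selt, Selm, Sep15 and Gpx4 lie above the line in both replicates, and the Txnrd1 intervals of the replicates do not overlap.

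Selk, Selt, Selm and Sep15 encode selenoproteins of the endoplasmic reticulum. Selk (ENSMUSG00000042682) is a small membrane protein that works with the palmitoyltransferase Zdhhc6 and with the Derlin proteins of protein quality control. It had 35 counts in replicate 1 and 9 in replicate 2 on a coding sequence of 285 nucleotides, which gave 333 and 282 CPM per kb, or 307 ± 35.9 (SD, n = 2). Its levels in the replicates were close, with a fold of 0.848 in replicate 2 over replicate 1 (95% exact interval 0.358 to 1.80).

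Selt (ENSMUSG00000075700), a thioredoxin-like membrane protein, carried the most footprints on a single isoform, with 50 counts in replicate 1 and 19 in replicate 2. Its density was 230 and 289 CPM per kb, or 260 ± 41.2 (SD, n = 2), and the fold between the replicates was 1.25 (0.697 to 2.16). The message has a 3' untranslated region of 2468 nucleotides against a coding sequence of 588, so 81.4% of its transcript is untranslated, the highest share of the 10. Per kilobase of whole transcript its level was 48.3 CPM per kb, below those of Selm, Sepw1, Selk, Gpx4 and Sep15.

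Selm (ENSMUSG00000075702), a thioredoxin-like protein of the reticulum lumen, had 28 counts in replicate 1 and 14 in replicate 2. Its density was 173 and 285 CPM per kb, or 229 ± 79.4 (SD, n = 2), with replicate 2 above replicate 1 by a fold of 1.65 (0.802 to 3.24). A processed transcript of the gene without an annotated coding sequence, Selm-003, had the same summed count of 42, as 31 and 11. Which of these represents the gene therefore rests on how a tie is broken, and the coding isoform was taken.

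Sep15 (ENSMUSG00000037072) encodes a lumenal protein that binds the glycoprotein-folding sensor Uggt1. It had 34 counts in replicate 1 and 6 in replicate 2, which gave 252 and 146 CPM per kb, or 199 ± 74.5 (SD, n = 2). Replicate 2 was at a fold of 0.582 of replicate 1 (0.1996 to 1.40). The isoform used, Sep15-002, encodes 121 residues, while Sep15-001 encodes 162 and had 35 and 3 counts. The isoforms were 2 counts apart in sum, and the coding length that divides the count differs between them. On the longest coding isoform of each gene Sep15 stood at 199 and 56.2 CPM per kb and Gpx4 at 91.0 and 84.2, so their replicate ranges then overlapped.

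Sepw1 (ENSMUSG00000041571), a small thioredoxin-fold protein of 88 residues known from muscle and brain, was the densest of the 10 with 1 isoform per gene, and the sixth with isoforms summed. Replicate 1 gave 41 counts and replicate 2 gave 9, which is 416 and 301 CPM per kb, with a mean of 359 ± 81.3 (SD, n = 2). The fold between the replicates was 0.724 (0.309 to 1.51). Sepw1 and Txnrd1 were the only members with a single isoform in the table, so their own counts do not depend on the choice of isoform, although their CPM do through the library total.

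The glutathione peroxidases stood at different mean levels, with overlapping intervals. Gpx4 (ENSMUSG00000075706), which reduces lipid hydroperoxides within membranes and protects cells from ferroptosis, had 25 counts in replicate 1 and 8 in replicate 2. Its density of 114 and 120 CPM per kb, or 117 ± 4.42 (SD, n = 2), gave the closest agreement between replicates of the 10 genes, with a fold of 1.06 (0.411 to 2.41). Gpx1 (ENSMUSG00000063856), which reduces hydrogen peroxide in the cytosol and mitochondria, had 14 and 2 counts, or 62.6 and 29.5 CPM per kb, with a mean of 46.0 ± 23.4 (SD, n = 2). The Gpx4 density was above that of Gpx1 in both replicates, with coding sequences of 594 and 606 nucleotides that are close in length. Exact Poisson intervals of the counts summed over replicates overlapped, at 79.5 to 162 CPM per kb for Gpx4 and 31.4 to 89.1 for Gpx1.

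The 2 longest coding isoforms of Gpx4 did not separate by count. Gpx4-001, with 197 residues, had 25 and 8 counts, and Gpx4-002, with 253 residues and a longer amino-terminal part known from sperm nuclei, had 25 and 7. The isoforms differed by 1 count in sum. Among the isoforms of Gpx1, the retained-intron form Gpx1-004 had 12 and 3 counts, close to the 14 and 2 of the coding form.

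The thioredoxin reductases use NADPH to reduce thioredoxin, Txnrd1 in the cytosol and Txnrd2 in mitochondria, and carry selenocysteine next to the last residue. Txnrd1 (ENSMUSG00000020250) had 11 counts in replicate 1 and 13 in replicate 2, although replicate 2 was the shallower library. This was 29.8 and 116 CPM, or 19.9 and 77.4 CPM per kb, and a mean of 48.6 ± 40.7 CPM per kb (SD, n = 2). Replicate 2 was above replicate 1 by a fold of 3.90 (1.61 to 9.60), or 1.93 ± 0.58 on the log2 scale (SE from counting). At equal levels 5.59 counts would be expected in replicate 2, against the 13 observed. The mean lies far from both replicates.

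Txnrd1 was the 1 gene called different between the replicates among the 8 members tested, at an adjusted p of 0.0279 by a 2-sided exact binomial test with Benjamini-Hochberg adjustment over 5436 genes. Over all those genes 4.14% were called, 3.99% as higher and 0.147% as lower in replicate 2. Of the 4392 coding genes among them 0.956% were called, 0.820% as higher. Fitted on coding genes alone 0.501% were called, and 2.41% of all tested genes by edgeR's exact test with a preset coefficient of variation. The test compares these libraries, not conditions. The call was lost with library totals (adjusted p = 0.0904), among coding genes alone (0.129), with at least 1 count in each replicate as the filter (0.141) and when edgeR allowed a coefficient of variation of 0.2 (0.377), while the log2 ratio stayed between 1.72 and 1.96. The 4 meningeal markers held 0.0673% of counts in replicate 2 and 0.0498% in replicate 1, with overlapping intervals. Of these Col1a1 was called, with 87 counts in replicate 1 and 48 in replicate 2, while Col1a2 (69 and 25) and Dcn (14 and 8) were not, and Lum (1 and 0) was not tested. The part of depth or of meningeal RNA in the Txnrd1 value was not tested.

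Txnrd2 (ENSMUSG00000075704) was the lowest of the 10, with 3 counts in replicate 1 and 2 in replicate 2. Its density was 5.51 and 12.1 CPM per kb, or 8.81 ± 4.66 (SD, n = 2). The interval of its fold between replicates, 0.184 to 19.2, was too wide to compare them. Its 13 isoforms held at most 5 counts each.

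Sepp1 (ENSMUSG00000064373) encodes the secreted selenium carrier, which holds several selenocysteines and delivers selenium to neurons through the receptor Lrp8. Replicate 1 gave 29 counts and replicate 2 gave 5, which is 68.7 and 39.1 CPM per kb, with a mean of 53.9 ± 21.0 (SD, n = 2). The fold between the replicates was 0.568 (0.172 to 1.49). Liver makes most circulating selenoprotein P, a protein pool that footprints do not measure. Of the liver markers Alb and Apoa1 had no count in either replicate and Serpina1a had 1 in replicate 2. Which cells the Sepp1 footprints came from was not tested. The short model Sepp1-004, which covers 331 nucleotides of coding sequence, or 29.0% of the full length, had 12 and 8 counts. In replicate 2 this was above the 5 counts of the full-length model, and in replicate 1 it was below the 29.

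**Figure D2:**
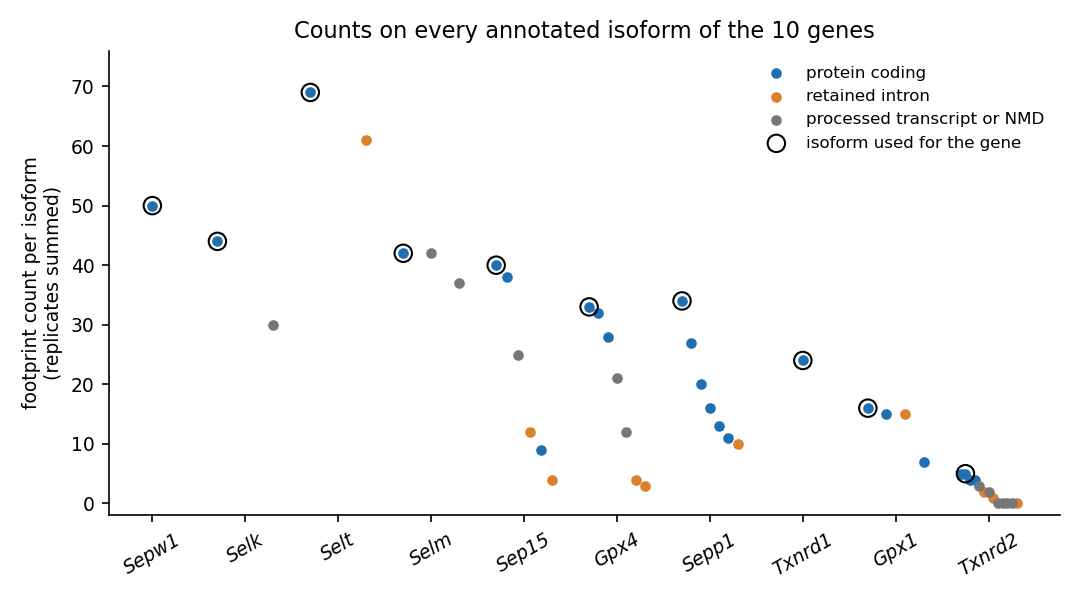
Footprint counts (replicates summed) on each of the 46 annotated isoforms of the 10 genes, coloured by biotype, with the isoform used for each gene ringed. In Selt, Selm and Gpx1 an isoform without coding annotation carries 61, 42 and 15 counts, close to the 69, 42 and 16 of the coding isoform.

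Isoforms without an annotated coding sequence carried counts near those of the coding isoform in several members. The highest such isoform reached 100% of the count of the coding isoform for Selm, 93.8% for Gpx1, 88.4% for Selt, 68.2% for Selk, 63.6% for Gpx4 and 62.5% for Sep15, against 29.4% for Sepp1. How fragments that match several isoforms were counted is not given in the sources used here, so these counts do not separate the coding from the noncoding form. If a fragment was counted for 1 isoform only, the level of a gene with several isoforms is understated here. If it was counted for several, the level with isoforms summed is overstated for such a gene. Gpx4 has 7 isoforms and Sepw1 has 1, so their order with isoforms summed can depend on how fragments were counted. Summed counts include noncoding isoforms but were divided by the coding length of the isoform used.

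Apart from Txnrd1, the 7 tested members were not called. By log2 ratio of replicate 2 over replicate 1 they lay between -0.80 for Sepp1 and 0.71 for Selm, with adjusted p of 0.784 to 1, and 1 of the 8 tested had an unadjusted p under 0.05, where 9.60% of all genes did. Of the 10 genes, 5 were higher and 5 lower in replicate 2. The median log2 ratio of the 8 tested members was -0.08, beside 0.0046 for all genes tested. With library totals in place of TMM sizes the median of all genes was -0.20. The counting interval of the fold was narrowest for Selt, at 0.697 to 2.16, and for Sepp1 it ran from 0.172 to 1.49. Each of the 7 intervals held a fold of 1.

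**Figure D3:**
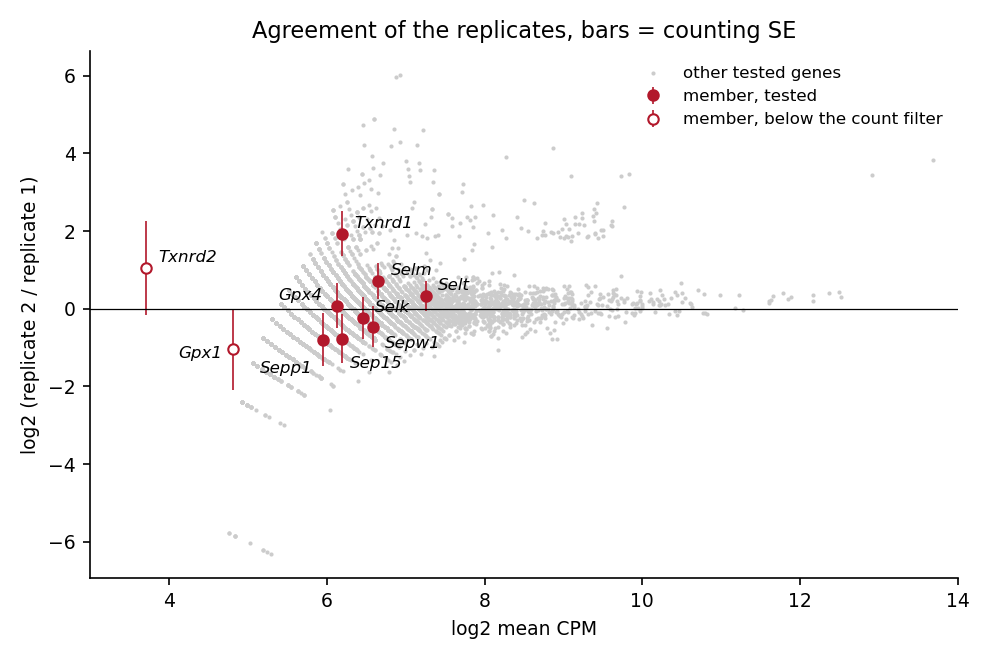
Log2 ratio of replicate 2 over replicate 1 against log2 mean CPM for the 5436 tested genes (grey) and the 10 members (red, bars are counting SE; open points were below the count filter). Txnrd1 at 1.93 lies above the other members, and the rest of the tested members lie between -0.80 and 0.71.

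Set among 4299 coding genes past the count filter, Sepw1 stood at percentile 91.2 of density, Selk at 89.1, Selt at 86.7, Selm at 84.5, Sep15 at 82.0 and Gpx4 at 69.6. Sepp1 at 44.6, Txnrd1 at 40.8, Gpx1 at 39.0 and Txnrd2 at 1.65 were below the median of these genes. Gpx1 and Txnrd2 did not pass that filter themselves. The median percentile was 75.8. Txnrd1 moved most between the libraries, from percentile 12.98 in replicate 1 to 57.7 in replicate 2. The place of a member depends on the filter. Among 10526 coding genes with at least 1 count in each replicate, 9 of the 10 members were above the median. There Sepp1 stood at percentile 73.75, Txnrd1 at 71.45, Gpx1 at 70.24 and Txnrd2 at 21.14.

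Most members have short messages. Their median coding length was 591 nucleotides against 1398 for the 4299 genes, and their median 3' untranslated region was 471 against 1066. Density falls with coding length over those genes (Spearman rho -0.781), in part by construction, since a short gene reaches 10 counts only at a high density. Within the members rho was -0.891 over 10 genes, which share libraries and scaling. Over 10526 coding genes with at least 1 count in each replicate, rho was -0.573 and the median percentile of the members was 89.8 at the library sizes used throughout. Among those of these genes within 1.5 times its own coding length, 8 of the 10 members were above the median, from 71.6 for Sep15 to 89.7 for Selt. Gpx1 stood at 48.9 and Txnrd2 at 21.2.

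**Figure D4:**
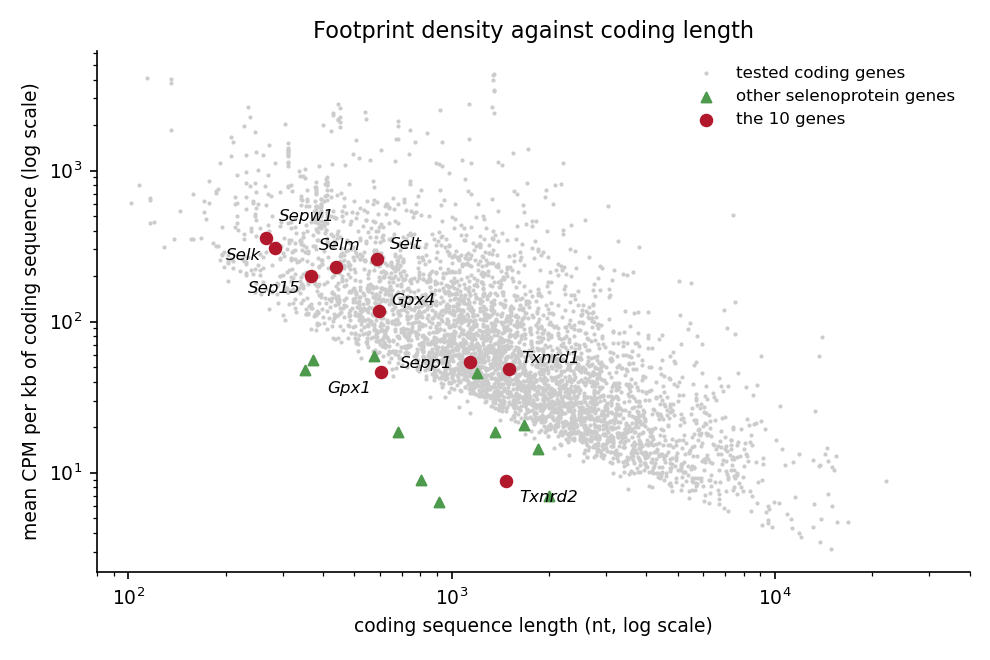
Mean CPM per kilobase of coding sequence against coding length, both on log axes, for tested coding genes (grey), the 10 genes (red) and the other selenoprotein genes with a count (green). Gpx1 and Txnrd2 did not pass the count filter that the grey points passed, and Sepw1 at 359 is the densest of the 10.

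The mouse has further selenoprotein genes, which mostly carried few footprints, though their counts overlapped those of the members. Of 14 other selenoprotein genes, 13 were found, Selv was not matched, and 1 passed the count filter. The 10 members held 73.0% of the counts of all selenoprotein genes found in replicate 1 and 77.0% in replicate 2. By count summed over replicates the lowest member, Txnrd2, ranked 19 among the 23 genes found. The gene that passed was Ept1 (Selenoi), an enzyme of phosphatidylethanolamine synthesis, with 14 and 8 counts, or 45.7 ± 19.8 CPM per kb (SD, n = 2), and it was not called. In sum its counts were above the 14 and 2 of Gpx1. Gpx2 and Dio1, named here after their values were seen, had no count in either replicate, which allows up to 8.13 CPM in replicate 1 and 26.8 CPM in replicate 2. Dio2 and Dio3, the deiodinases that activate and inactivate thyroid hormone, had 2 and 1 counts and 1 and 1 counts, and were also named afterwards. The median density of the 13 genes was 18.5 CPM per kb, beside 158 for the members and 62.3 for coding genes tested. Of the 13, only 1 passed the filter behind that 62.3. For coding genes with at least 1 count in each replicate, as 11 of the 13 had, the median was 22.7 CPM per kb. The members were chosen with earlier results of these data known, and the part of that choice in these shares and medians was not tested.

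The factors that make and insert selenocysteine ranged widely. All 12 of that list were in the table, 5 passed the filter and none was called by the exact binomial test, with none at an unadjusted p under 0.05. The 3 with the highest CPM have wider roles. Ncl, a nucleolar protein that also binds SECIS elements, stood at 242 ± 33.1 CPM per kb (SD, n = 2). Sars, which charges the selenocysteine tRNA with serine, stood at 121 ± 21.9 and Eif4a3, a helicase of the exon junction complex that can bind SECIS elements, at 86.6 ± 20.2 (each SD, n = 2). Per kilobase the ribosomal protein Rpl30, named after its value was seen, stood between Ncl and Sars at 168 ± 16.9 (SD, n = 2). The dedicated factors were low. Secisbp2 had 1 count in each replicate, Eefsec 8 and 0, and Sepsecs, which converts the serine to selenocysteine, 2 and 0; these 3 were named after their values were seen. Secisbp2l, a relative of Secisbp2 also named afterwards, had 28 and 14 counts.

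Selenium uptake and recycling was covered by 3 genes, none of which passed the filter. Lrp8, the neuronal receptor for the Sepp1 protein, had 13 and 4 counts, or 12.4 ± 0.124 CPM per kb (SD, n = 2). Scly, which recovers selenium from selenocysteine, had 2 and 0 counts and Lrp2, a receptor of kidney and choroid plexus, had 0 in both. These genes were likewise named after their values were seen.

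Thiol redox enzymes that use cysteine in place of selenocysteine, with antioxidant enzymes of the same pathways, were more abundant than the members at the upper end. Of 25 genes 13 passed the filter and none was called by the exact binomial test, with 1 at an unadjusted p under 0.05. Txn1, the thioredoxin that Txnrd1 reduces, stood at 807 ± 28.3 CPM per kb (SD, n = 2), above Txnrd1 and every other member in both replicates. Sod1, which disposes of superoxide, stood at 657 CPM per kb, with 623 and 691 in the replicates. Gclm, a subunit of the first enzyme of glutathione synthesis, was represented by a processed transcript without coding length and stood at 304 ± 38.0 CPM (SD, n = 2). With the isoform taken from coding isoforms alone, Gclm fell below the minimum for testing. Its level was therefore not compared with those of the members. The median of the list was 71.6 CPM per kb over 23 genes with a coding length.

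Of 6 partners of the members in the endoplasmic reticulum, 3 passed the filter and none was called by the exact binomial test, nor was any at an unadjusted p under 0.05. Vcp, an ATPase of protein quality control, stood at 550 ± 30.6 CPM, Derl1 at 73.1 ± 22.9 CPM and Uggt1 at 56.0 ± 21.8 CPM (each SD, n = 2). These CPM are not divided by coding length. Per kilobase of coding sequence Vcp stood at 227 ± 12.6 and Derl1 at 96.7 ± 30.3 CPM per kb (each SD, n = 2). Uggt1 was represented by an isoform annotated for nonsense-mediated decay, and from coding isoforms alone its density was 8.63 CPM per kb in place of 70.2. Over the 5 lists, edgeR's exact test and DESeq2 size factors likewise gave 0 calls. Summing isoforms gave 4, where 7.23% of all genes tested were called. Those 4 rest on counts that may hold a fragment more than once.

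**Figure D5:**
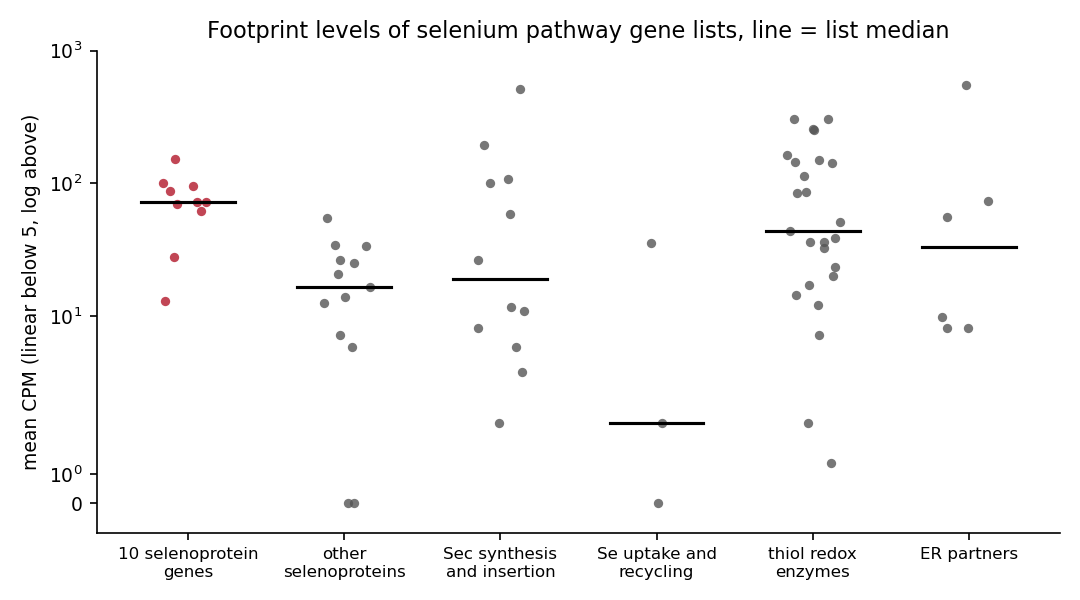
Mean CPM (linear below 5, log above), not divided by coding length, of each gene in the 6 lists, with the list median as a line. The median of the 10 genes is 72.9 CPM, against 16.7 for the other selenoproteins and 19.1 for the factors of selenocysteine synthesis and insertion, of which Ncl, Sars, Eif4a3 and Secisbp2l lie above 100.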

How the data were processed

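Active ribosome profiling was carried out on 2 brain samples of 1 group. The authors deposited 1 table of whole-number footprint counts per transcript and replicate, for 109463 transcripts, with other values (lengths in nucleotides). The submitters' processing notes name Trimmomatic 0.36, Bowtie2 2.2.6, SAMtools and the build GRCm38.p4. The counting tool, annotation release, strand and any ribosomal RNA filter are not given in the sources used here. The table holds 0 other columns of samples.

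In 476 genes with exactly 2 isoforms of equal coding length, the squared difference of their counts was 0.76 of what counting each fragment once would give, so some fragments may count for several isoforms. Ties between isoforms went to the longer coding sequence, a choice made after the table was seen.

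CPM used TMM factors from edgeR 4.0.16 (1.07 and 0.931), and log2 ratios were taken on CPM + 1. Genes averaging 10 counts or more entered a 2-sided exact binomial test, adjusted by Benjamini-Hochberg at 0.05. It was run on simulated data that held counting error alone, as the test assumes. That run cannot show how the test behaves with further variation between replicates. With 1 group, edgeR's quasi-likelihood test has no contrast. Alternatives used DESeq2 1.42.0 size factors and edgeR's exact test. Intervals and limits cover counting error only and leave out variation between the replicates. Amplified reads carry no molecular identifiers, so counting error itself may be understated. The p-values of the binomial test measure departure from counting error at these library sizes, not a spread between animals.

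The genes named are the members and, of each list, the 3 with the highest CPM past the filter, those called and those not matched; others are marked in the text. Members and lists were chosen with earlier results of these data known. The planned comparison with selenocysteine position was not run, since protein sequences were not used here. In RefSeq, Sepp1 overlaps Ccdc152 (0 and 0 counts) and Txnrd1 overlaps Eid3 and Gm38560, which are not analysed here.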

Additional observations from a re-analysis of the deposited data

How the results depend on the processing

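No paired analysis was possible because the labels give only 1 group. The median density of the members, 158 CPM per kb, became 107.5 on each gene's longest coding isoform, 203.8 with isoforms summed, 117.2 with ties broken by transcript length, which takes a noncoding isoform for Selm, and 55.1 per kilobase of whole transcript; leaving out a replicate in turn gave 133.4 to 143.6. The mean share of counts, 0.0755%, became 0.0907% with isoforms summed and 0.0978% of coding counts. The median percentile, 75.8, became 71.7 per whole transcript, 89.9 with at least 1 count in each replicate (library sizes refitted), 69.6 with ties broken by transcript length and 76.3 from coding isoforms alone, and 73.4 to 73.9 with a replicate left out. Members past the filter went from 8 to 0 at a minimum mean of 50 counts and to between 3 and 9 with a replicate left out. The 1 member called became 0 with library totals, with at least 1 count in each replicate, at a minimum mean of 50 counts (no member tested), among coding genes alone and with a coefficient of variation of 0.2. The pathway lists went from 0 calls to 4 with isoforms summed (605 calls among 8366 genes, or 7.23%, against 225 of 5436, or 4.14%). Of the 605 calls 383 were higher in replicate 2, against 217 of the 225. If a fragment counts for several isoforms, the test on summed counts understates counting error, so these calls can be too many. A minimum mean of 50 gave 75 calls of 764 genes (9.82%), coding genes alone 22 of 4392 (0.501%) and a coefficient of variation of 0.2 gave 131 of 5436 (2.41%). The log2 ratio of Gpx4, 0.076, turned to -0.13 with library totals, -0.057 with isoforms summed, -0.11 on the longest coding isoform and -0.082 with at least 1 count in each replicate; none was called. With isoforms summed, Txnrd2 turned to -0.27, Sepp1 to 0.21 and Gclm to 0.087. Sod1 turned to -0.057 and -0.011, and Vcp to -0.093 and -0.047, with library totals and with at least 1 count in each replicate. Where no cause is given, the cause was not tested. Breaking ties by transcript length and coding isoforms alone were added after the data were seen. Depth limits every member: at most 69 counts over both replicates.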
